A study of Mus musculus with 25 samples.

Results

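The 36 genes described here act in mitosis, the step of the cell cycle in which the copied chromosomes are separated into daughter cells. The list was given by gene name and matched to the names in the deposited intron tables. Of the 36, 35 were measured, and they hold 511 of the 163315 introns with values, in 35 of the 17591 genes. Foxm1 was not analysed here.

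Cells enter mitosis when Cdk1, bound to the B-type cyclins, phosphorylates its substrates. Polo-like and Aurora kinases then build the spindle, and kinetochores, the protein complexes on the centromeres, attach the chromosomes to it. The spindle checkpoint holds the anaphase-promoting complex back until all chromosomes are attached, after which separase cuts cohesin and the cytokinesis proteins divide the cell. Most of these genes are transcribed late in the cycle, and their summed mRNA level is widely used as a measure of how much of a tumor is dividing.

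The tumors were T11, AT3, PyMT-M and 2208L, 4 genetically engineered mouse models of triple-negative breast cancer. They were placed orthotopically, in the mammary gland, into female mice of 4 to 5 weeks. T11 and 2208L grew in Balb/c mice, and AT3 and PyMT-M in C57BL/6 mice. The mice were randomized to vehicle or to H3B-8800, an oral compound that binds the SF3B complex of the spliceosome, and were treated each day before the tumors were taken. RNA of the whole tumor was sequenced after poly(A) selection. There were 4 vehicle and 4 H3B-8800 libraries for PyMT-M, 3 and 2 for AT3, 3 and 3 for 2208L, and 3 and 3 for T11, each from a tumor of its own according to the design text. The phenotype labels read Responder for 2208L and PyMT-M and Nonresponder for AT3 and T11. The labels name neither the engineered alleles of the models, nor the dose, nor a batch.

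A gene's level is its count of spliced reads, the reads that overlap an intron minus the reads inside it, summed over its introns and given as CPM, which relates the count to the scaled total of its library. A CPM therefore grows with the number of introns, and genes are compared with each other only per intron. The intronic percent of an intron is its intronic reads over all reads that overlap it. Libraries held 9820825 to 19700955 spliced reads. Tests were edgeR's quasi-likelihood tests over 13001 genes or 52042 introns with Benjamini-Hochberg adjustment, and a gene or intron is called where the adjusted p is under 0.05. In the share of intronic reads, the T11 libraries ran opposite to those of the other models: the libraries labelled vehicle averaged higher than those labelled H3B-8800. T11 is therefore described by its labels only, and calls in the other models were also made without it. Skeletal muscle transcripts, at a mean log2(CPM + 1) above 3 over 8 markers, stood out in PyMT-M H3B-8800 replicates 1 and 2, 2208L vehicle replicate 1, T11 vehicle replicate 3 and T11 H3B-8800 replicate 2. B cell and plasma cell markers passed the same level in AT3 vehicle replicate 2 and T11 H3B-8800 replicate 2.

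All 35 mitosis genes had their lowest group mean in the PyMT-M tumors given H3B-8800. The CPM of the 35 genes summed to 1574 ± 414 in PyMT-M vehicle tumors (SD, n = 4) and to 772 ± 399 after H3B-8800 (n = 4). The sum was 4989 ± 217 in AT3 vehicle tumors (n = 3) and 4168 ± 620 with H3B-8800 (n = 2), and 4083 ± 353 and 2855 ± 601 in 2208L (n = 3 each). In T11 it was 3810 ± 740 under the vehicle label and 4762 ± 227 under the H3B-8800 label (n = 3 each). The highest group mean lay in AT3 vehicle for 13 genes, in T11 labelled H3B-8800 for 11, in 2208L vehicle for 5, in T11 labelled vehicle for 4 and in AT3 H3B-8800 for 2. In whole tumors, fewer dividing cells and less of these mRNAs in each cell cannot be told apart.

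Per intron, the most abundant genes were Ube2c, the ubiquitin-conjugating enzyme of the anaphase-promoting complex, with a median group mean of 32.7 CPM per intron, and Cdk1 with 31.1. The centromeric histone Cenpa had 23.2, cyclin A2 (Ccna2) 22.4 and survivin (Birc5) 20.9. The lowest were the kinetochore protein Cenpf at 1.54 CPM per intron, separase (Espl1) at 1.63 and the checkpoint kinase Ttk at 1.74. The order between neighbouring genes in this ranking was not tested.

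Most mitosis genes were lower in PyMT-M tumors given H3B-8800 than in vehicle tumors. Of the 35, 25 fell and 0 rose, where 14.6% of all genes tested fell and 10.2% rose. The fitted log2 fold change was below 0 for all 35 genes, from -2.86 to -0.30, with a median of -1.10, while the median over all genes was 0.02. In 8 genes every H3B-8800 library was below every vehicle library, which was the case for 16% of all genes. Without the libraries that carry muscle or B cell transcripts, which leaves PyMT-M H3B-8800 replicates 3 and 4, 34 of 35 genes were below 0 with a median of -0.81 and 6 were called lower: Ttk, Bub1b, Ect2, Fam64a, Ndc80 and Kif2c. In that fit 7.20% of all genes were called lower. Those 2 tumors had the highest adipocyte markers of the PyMT-M tumors, with a mean log2(CPM + 1) of 3.17 and 4.68 over 6 markers, against 0.72 to 1.81 in the vehicle tumors and 0.93 and 1.17 in H3B-8800 replicates 1 and 2. Over all PyMT-M tumors 2 of 5 adipocyte markers tested were called higher, and their part in the fall of the mitosis genes was not tested. Without the T11 libraries 25 were called, though not the same 25, since Nuf2 was not among them. With the spread taken from the PyMT-M libraries alone 17 genes were called lower. The share of all genes called in that fit is not given here. Within the H3B-8800 group, replicate 4 had the highest level of all 35 genes, and within the vehicle group replicate 4 was highest for 31 and replicate 3 lowest for 34.

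**Figure D1:**
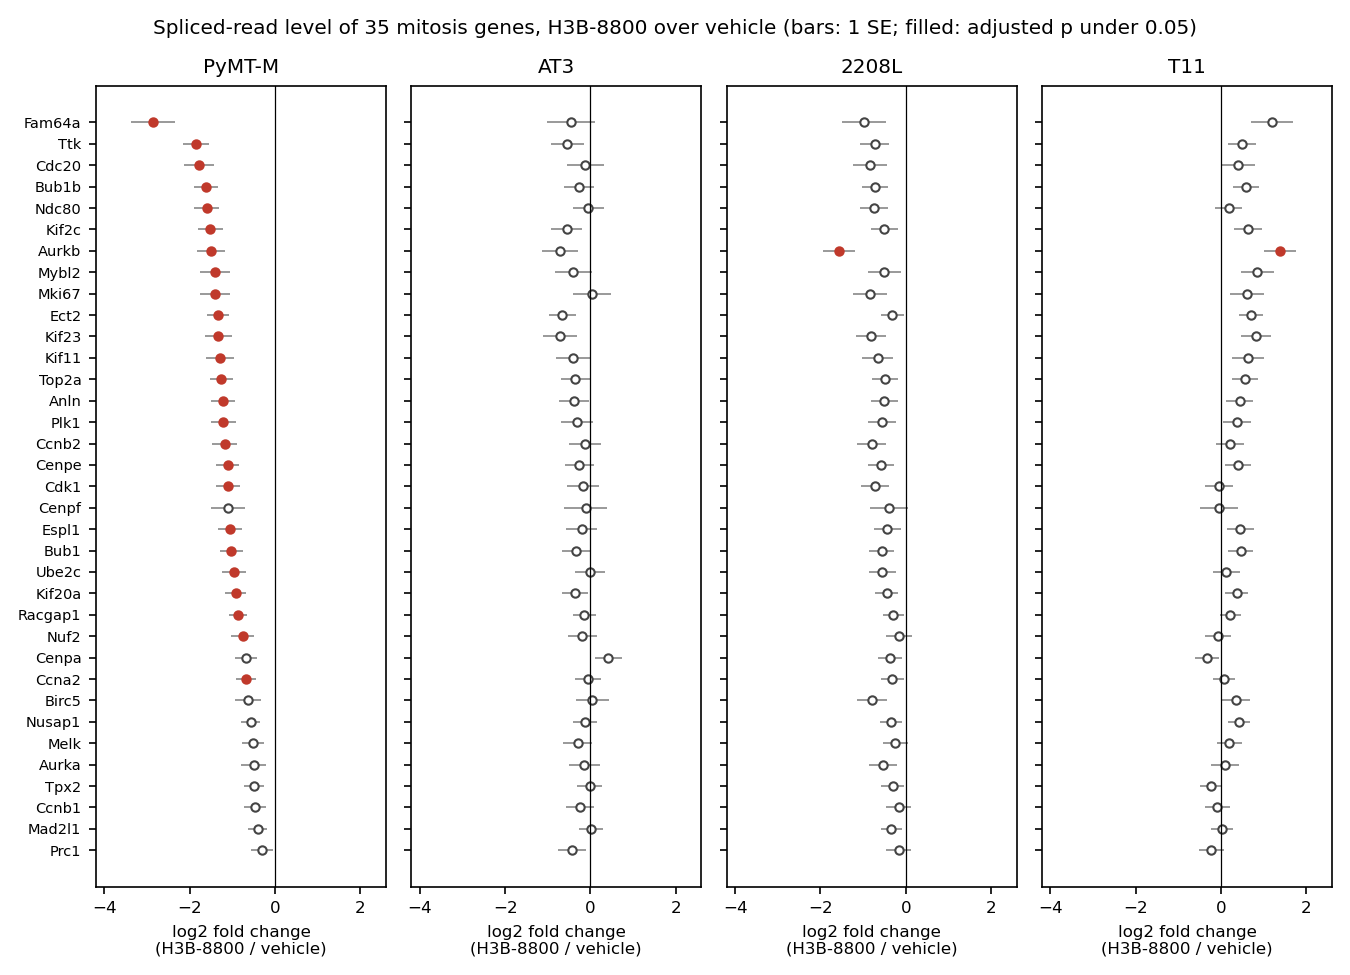
Fitted log2 fold change of each of the 35 mitosis genes, H3B-8800 over vehicle, in the 4 models, with the x axis in log2 units and bars of 1 standard error. Filled points have an adjusted p under 0.05: 25 genes in PyMT-M, 0 in AT3, and Aurkb alone in 2208L (lower) and in T11 (higher, by its labels).

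Markers of other cells were followed in the same tumors, where macrophage markers were higher after treatment, without overlap, in PyMT-M and 2208L, where 6 and 7 of 8 were called higher. Of all 13001 genes tested, 1328 were called higher in PyMT-M and 607 in 2208L. The mean log2(CPM + 1) of 8 macrophage markers was 3.96 to 5.30 in the vehicle tumors of PyMT-M and 5.84 to 6.39 after H3B-8800, with 0 markers at 0 in any library, and 4.18 to 6.25 and 7.07 to 7.24 in 2208L. In AT3 it was 5.93 to 6.39 and 6.22 to 6.55. In T11 it was 5.57 to 6.207 under the vehicle label and 6.214 to 6.30 under the H3B-8800 label, also without overlap, with 0 of 8 markers called. The 7 epithelial markers summed to 3916 to 6500 CPM in the vehicle tumors of PyMT-M and to 4079 to 5725 after H3B-8800. In 2208L the 8 B and plasma cell markers were also apart, at 3.22 to 6.65 summed CPM in vehicle tumors and 46.7 to 69.9 after H3B-8800. Of these 8 markers 0 were called there, and up to 5 were at 0 in a vehicle library. The part of any of these markers in the fall of the mitosis genes was not tested.

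Among the kinases and cyclins that drive entry into mitosis, Cdk1 had 85.5, 91.4, 69.3 and 162 CPM in the 4 PyMT-M vehicle tumors and 48.4, 28.7, 30.4 and 82.3 with H3B-8800. The groups overlapped, as H3B-8800 replicate 4 exceeded vehicle replicate 3, and the log2 fold change was -1.10 (SE 0.29, adjusted p = 0.00872). Without vehicle replicate 4, the highest of all, it was -0.79 (adjusted p = 0.0529). Plk1, the Polo-like kinase that acts from mitotic entry to cytokinesis, had 30.8, 37.4, 24.4 and 66 CPM in vehicle tumors and 18.4, 11.1, 10.3 and 28.3 with H3B-8800. Its log2 fold change was -1.22 (SE 0.30, adjusted p = 0.00505), with overlap again through H3B-8800 replicate 4. Cyclin B1 (Ccnb1), the main partner of Cdk1, had 44.9, 48.2, 32 and 57.2 CPM and then 34, 18.2, 22.6 and 56.1. Replicate 4 with H3B-8800 was above 3 of the 4 vehicle tumors, and Ccnb1 did not pass, at -0.48 (SE 0.26, adjusted p = 0.185). Without that library it was -0.87 (adjusted p = 0.00816). Cyclin B2 (Ccnb2) and cyclin A2 fell, at -1.18 (adjusted p = 0.00591) and -0.67 (adjusted p = 0.0378), but the call of Ccna2 was lost without any one of vehicle replicates 1, 2 and 4 and H3B-8800 replicates 1, 2 and 3. Of the Aurora kinases, Aurkb, the enzyme of the chromosomal passenger complex, had 18.2, 20.5, 12.7 and 25.7 CPM of spliced reads and then 5.46, 3.75, 3.22 and 14.8, with a change of -1.50 (SE 0.33, adjusted p = 0.00278). Aurka, which works at the spindle poles, had -0.51 (adjusted p = 0.209) and was not called. Survivin, another passenger protein, at -0.63 (adjusted p = 0.133), and the kinase Melk, at -0.53 (adjusted p = 0.147), were not called either.

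The spindle checkpoint held the smallest p-values. Ttk, also known as Mps1, the kinase that starts checkpoint signalling at the kinetochore, had 17.2, 19.96, 15.5 and 26.5 CPM in vehicle tumors and 6.76, 2.55, 2.99 and 9.58 with H3B-8800. All H3B-8800 tumors were below all vehicle tumors, and the log2 fold change was -1.85 (SE 0.31, adjusted p = 0.000212). Bub1b, also known as BubR1, which inhibits the anaphase-promoting complex, had 68.5, 64.1, 50.1 and 78.7 CPM and then 23.1, 10.5, 13.6 and 37.7. The groups did not overlap, and the change was -1.62 (SE 0.27, adjusted p = 0.000245). The kinase Bub1 fell too, at -1.02 (adjusted p = 0.00796), whereas Mad2l1, which binds and blocks Cdc20, did not pass at -0.41 (adjusted p = 0.19). Cdc20 itself, the activator that the checkpoint restrains, changed by -1.79 (SE 0.35, adjusted p = 0.00105), with no overlap between 55.2, 60.8, 44.4 and 113 CPM in vehicle tumors and 20.4, 11.9, 10.5 and 36.2 with H3B-8800. Downstream, Ube2c at -0.96 (adjusted p = 0.0161) and Espl1 at -1.06 (adjusted p = 0.00976) fell. Both calls were lost without vehicle replicate 4, and that of Ube2c also without H3B-8800 replicate 2 or 3.

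At the kinetochore, Ndc80, the microtubule-binding subunit of the complex named after it, had 29.7, 31.3, 21.2 and 48.9 CPM in vehicle tumors and 7.86, 6.64, 9.20 and 19.4 with H3B-8800. The groups were apart, with a log2 fold change of -1.60 (SE 0.29, adjusted p = 0.000546). Its partner Nuf2 was just inside the threshold at -0.76 (adjusted p = 0.0469), and was called neither without vehicle replicate 1, 2 or 4 nor without H3B-8800 replicate 1, 2 or 3. It was also not called without the T11 libraries (adjusted p = 0.06). Without the libraries that carry muscle or B cell transcripts its adjusted p was 0.534. The kinetochore motor Cenpe fell at -1.11 (adjusted p = 0.00512), while Cenpf at -1.10 (adjusted p = 0.0503) and Cenpa at -0.69 (adjusted p = 0.0596) lay just outside it.

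Among motors and cytokinesis proteins, Kif2c, a kinesin that takes microtubules apart at the centromere, had 32.7, 32.5, 26.1 and 46.2 CPM in vehicle tumors and 12.7, 6.64, 6.21 and 22.2 with H3B-8800, a log2 fold change of -1.53 (SE 0.29, adjusted p = 0.00084). Ect2, the exchange factor that activates RhoA at the cell equator, changed by -1.34 (SE 0.25, adjusted p = 0.000677), and its H3B-8800 values of 18.5, 8.11, 9.75 and 22.5 CPM lay below vehicle values of 37.5, 41.4, 29.1 and 41.2. Anln, an actin-binding scaffold of the contractile ring, was also without overlap, at -1.22 (adjusted p = 0.00339). Kif11 at -1.29 (adjusted p = 0.00626), which pushes the spindle poles apart, Kif23 at -1.33 (adjusted p = 0.00402) and Racgap1 at -0.87 (adjusted p = 0.00601), which form the centralspindlin complex, and Kif20a at -0.93 (adjusted p = 0.00791) also fell. Prc1, which bundles microtubules of the central spindle, had the smallest change of the 35, -0.30 (SE 0.26, adjusted p = 0.416), and the spindle proteins Tpx2 at -0.50 (adjusted p = 0.119) and Nusap1 at -0.57 (adjusted p = 0.0685) were not called. Introns of Kif20a overlap the antisense gene Cdc23 and introns of Prc1 overlap Rccd1. Whether the counting used strand is not given in the sources used here.

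Mki67, which encodes the Ki-67 protein that coats mitotic chromosomes, had 37, 35.4, 26.9 and 76.5 CPM in vehicle tumors and 18.2, 10.2, 10.1 and 27.5 with H3B-8800. The groups overlapped at one pair of tumors, vehicle replicate 3 and H3B-8800 replicate 4, and the log2 fold change was -1.41 (SE 0.35, adjusted p = 0.00636). Top2a, the topoisomerase that untangles sister chromatids, had 166, 158, 120.5 and 205 CPM and then 65.7, 38, 43.2 and 124, a change of -1.26 (SE 0.27, adjusted p = 0.00196), also with overlap through replicate 4. Mybl2, a transcription factor that activates late cell cycle genes, fell at -1.41 (adjusted p = 0.0061). Fam64a, named Pimreg in GENCODE, had the largest fitted change, -2.86 (SE 0.51, adjusted p = 0.000475), from 6.15, 5.95, 4.32 and 14.1 CPM to 0.582, 0.268, 0.629 and 2.69. All 4 treated tumors were below 3 CPM for this gene.

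**Figure D2:**
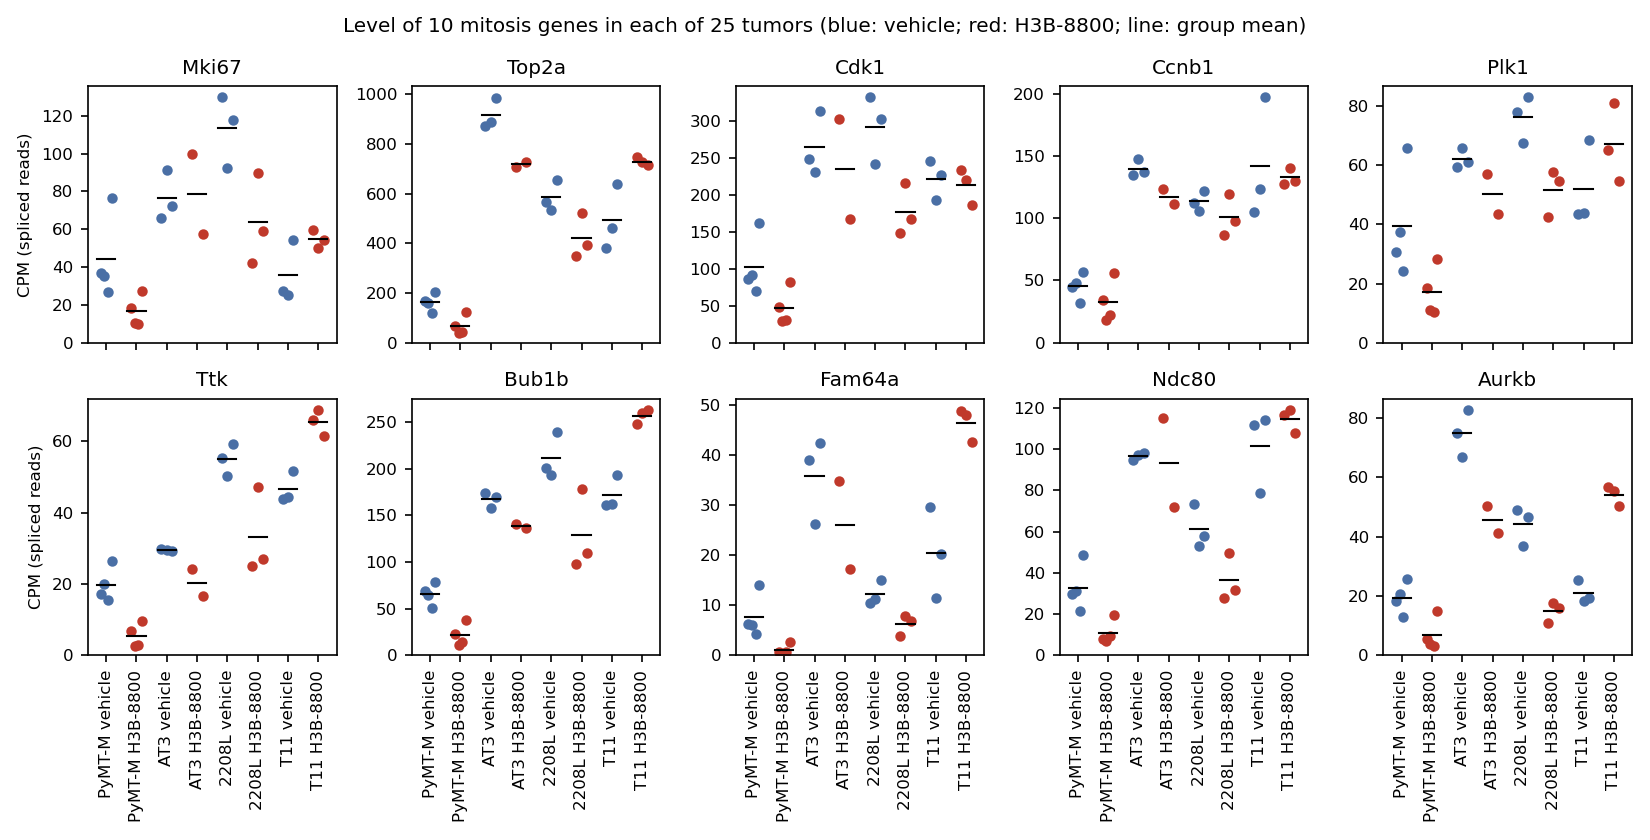
CPM of spliced reads in each tumor for 10 mitosis genes, by model and treatment, each point a library. In PyMT-M the H3B-8800 tumors of Ttk, Bub1b, Ndc80 and Fam64a lie below all vehicle tumors, and for Aurkb the T11 libraries labelled H3B-8800 lie above those labelled vehicle.

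Since the mitosis genes moved together in PyMT-M, their promoters were read from RefSeq (GRCm38.p6). The 250 bases upstream of the start were searched on both strands for TTTGAA and TTCGAA, forms of the cell cycle genes homology region through which DREAM and MuvB complexes act, and for CCAAT, the NF-Y site. Of the 35 genes, 30 matched by symbol, all but Kif20a, Fam64a, Aurkb, Ccna2 and Tpx2. TTTGAA was present in 10 of 30 promoters (33.3%) against 16.3% of 27025 promoters, TTCGAA in 2 (6.67%) against 1.34%, and CCAAT in 21 (70.0%) against 34.5%. Either homology region form together with CCAAT occurred in 10 (33.3%) against 6.21%. One or the other form stood in 11 of the 30 (36.7%) against 17.4% of all promoters. All 11 were among the 21 genes that fell in PyMT-M, with Mki67, Top2a, Cdc20, Bub1b and Cdk1 among them. The 9 genes that were not called held 0. This split by the calls of these data was not tested, and Cenpf and Cenpa, among the 9, lay just outside the threshold. TTTGAA and TTCGAA cannot match at the same position, CCAAT can share bases with either, and a match is not a shown binding site. Ttk, Bub1b and Ndc80 are printed because they had the smallest p-values among called genes in the table, and Cdk1 because it is the central kinase. Capitals mark the homology region and CCAAT letters on either strand. Ttk lies at chr9:83834439-83834688 on the plus strand, Bub1b at chr2:118597961-118598210 on the plus strand, Ndc80 at chr17:71526858-71527107 on the minus strand and Cdk1 at chr10:69352913-69353162 on the minus strand.
Ttk: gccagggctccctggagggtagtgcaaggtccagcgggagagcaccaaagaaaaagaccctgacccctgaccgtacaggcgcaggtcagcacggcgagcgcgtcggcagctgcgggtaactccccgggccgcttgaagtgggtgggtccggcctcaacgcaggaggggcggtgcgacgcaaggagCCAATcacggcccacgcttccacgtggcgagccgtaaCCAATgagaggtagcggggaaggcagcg
Bub1b: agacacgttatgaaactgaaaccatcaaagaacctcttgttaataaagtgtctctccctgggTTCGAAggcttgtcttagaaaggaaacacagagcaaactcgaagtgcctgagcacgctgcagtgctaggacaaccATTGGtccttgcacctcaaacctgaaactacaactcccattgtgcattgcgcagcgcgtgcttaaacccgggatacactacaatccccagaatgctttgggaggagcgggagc
Ndc80: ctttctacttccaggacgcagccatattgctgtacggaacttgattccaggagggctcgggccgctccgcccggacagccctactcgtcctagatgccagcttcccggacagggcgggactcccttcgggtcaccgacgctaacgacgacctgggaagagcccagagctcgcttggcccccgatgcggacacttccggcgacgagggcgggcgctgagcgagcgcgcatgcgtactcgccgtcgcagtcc
Cdk1: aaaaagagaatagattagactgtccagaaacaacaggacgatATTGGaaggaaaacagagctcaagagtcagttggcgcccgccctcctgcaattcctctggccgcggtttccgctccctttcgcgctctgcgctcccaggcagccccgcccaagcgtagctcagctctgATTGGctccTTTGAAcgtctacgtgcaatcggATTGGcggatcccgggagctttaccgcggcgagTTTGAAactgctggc
These lines show the range among genes that fell in the same tumors: Cdk1 holds both kinds of letters more than once, Bub1b and Ttk differ in which they hold, and Ndc80 holds none in this window.

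In AT3 tumors no mitosis gene was called, by edgeR's quasi-likelihood test or by DESeq2, and 0 had an unadjusted p under 0.05. Of all genes, 0.3% were called there and 13.0% had an unadjusted p under 0.05. The fitted change was below 0 for 31 of 35 genes with a median of -0.25, and 17 genes had both H3B-8800 libraries below all vehicle libraries, against 13.1% of all genes. Aurkb had 75, 66.8 and 82.6 CPM in vehicle tumors and 50.2 and 41.2 with H3B-8800, -0.71 (SE 0.42, adjusted p = 0.501). Ect2 at -0.66 (adjusted p = 0.387) and Kif23 at -0.71 (adjusted p = 0.473) had changes of similar size. Cdk1, with 249, 231 and 313 CPM and then 303 and 168, and Mki67, with 66, 91.5 and 72.4 and then 100.002 and 57.4, show the spread between the 2 H3B-8800 tumors, of which replicate 1 was higher in 29 of 35 genes. Top2a had 874, 887 and 986 CPM and then 706 and 729, Plk1 59.6, 65.9 and 61.3 and then 57 and 43.7, and Ccnb1 135, 148 and 137 and then 124 and 111. These 3 were lower in both H3B-8800 tumors than in any vehicle tumor without passing the test.

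In 2208L tumors 1 of 35 genes was called, where 5.67% of all genes fell. Aurkb had 49, 36.9 and 46.5 CPM in vehicle tumors and 11, 17.6 and 16 with H3B-8800, a log2 fold change of -1.57 (SE 0.38, adjusted p = 0.0131). The call was lost without vehicle replicate 1 (-1.47, adjusted p = 0.0503), which carries muscle transcripts, without vehicle replicate 3 (-1.53, adjusted p = 0.0507) or without H3B-8800 replicate 1 (-1.39, adjusted p = 0.0792). All 35 genes had a fitted change below 0 with a median of -0.50, 10 had an unadjusted p under 0.05, against 26.4% of all genes, and 23 had no overlap between the groups, against 20.8% of all genes. Mki67 had 129.7, 92.5 and 118 CPM and then 42.1, 89.7 and 58.9, -0.83 (SE 0.40, adjusted p = 0.187). Cdk1 had 332, 241 and 303 CPM and then 148, 215 and 167, and Top2a 567, 536 and 657 and then 348, 524 and 393, lower in all 3 treated tumors but not called. Plk1 had 78.1, 67.7 and 83.3 CPM and then 42.7, 57.9 and 54.8, and Ccnb1 113, 106 and 122 and then 86.3, 119.7 and 98.2, the latter with overlap. H3B-8800 replicate 2 was the highest of the treated tumors for 34 of 35 genes. With the spread taken from the 2208L libraries alone 11 genes were called lower, Aurkb, Kif23, Ccnb2, Cdc20, Cdk1, Birc5, Bub1, Plk1, Ube2c, Fam64a and Anln. In that fit 12.02% of all genes were called lower.

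In T11 the libraries labelled H3B-8800 were higher than those labelled vehicle for Aurkb, with 56.6, 55.2 and 50.3 CPM against 25.3, 18.2 and 19.2 and a log2 fold change of 1.37 (SE 0.37, adjusted p = 0.0217). It was the 1 gene called, where 6.66% of all genes were higher, and its adjusted p was 0.0682, 0.0550, 0.0565 and 0.0526 without vehicle replicate 2, vehicle replicate 3, H3B-8800 replicate 1 and H3B-8800 replicate 2. The fitted change was above 0 for 28 of 35 genes with a median of 0.37, and 14 genes were higher in every library labelled H3B-8800, against 14% of all genes. Fam64a had 29.6, 11.3 and 20.2 CPM under the vehicle label and 48.9, 48 and 42.7 under the H3B-8800 label, without overlap, but was not called at 1.19 (SE 0.50, adjusted p = 0.125). Top2a, with 383, 462 and 639 CPM under the vehicle label against 747, 727 and 714, was without overlap as well. In the same order of labels, Mki67 had 27.5, 25 and 54.5 against 59.3, 50.2 and 54.4 CPM, Plk1 43.6, 43.8 and 68.5 against 65.3, 81.2 and 54.8, Ccnb1 105, 124 and 198 against 128, 141 and 130.3, and Cdk1 245, 193 and 226 against 234, 220.02 and 186. In these 4 genes the label groups overlapped, and the library labelled vehicle replicate 3 was the highest of its group for Mki67, Plk1 and Ccnb1. Of 8 T cell markers measured, 6 were called higher under the H3B-8800 label, and their part in these differences was not tested.

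The difference between models was tested directly. The change in PyMT-M minus that in AT3 was below 0 for 34 of 35 genes with a median of -0.85, but 0 were called (12 at an unadjusted p under 0.05, and 2 called, Ndc80 and Fam64a, with DESeq2). Of all genes, 1.1% were called in either direction, 15.7% had an unadjusted p under 0.05 and 3.84% were called with DESeq2. Ndc80 came closest, at -1.55 (SE 0.46, adjusted p = 0.0935). Against 2208L, the median was -0.53, 32 of 35 were below 0, 0 were called by edgeR's test and by DESeq2 and 5 had an unadjusted p under 0.05, where 1.92% of all genes were called in either direction and 16.7% had such a p. Ect2 was first, at -1.03 (SE 0.37, adjusted p = 0.159). PyMT-M H3B-8800 replicate 4 decided these counts: without it 8 genes were called against AT3, Fam64a, Ndc80, Bub1b, Top2a, Aurkb, Cdc20, Ttk and Kif2c, and 7 against 2208L, Fam64a, Kif2c, Top2a, Bub1b, Nuf2, Ttk and Ect2. All were called lower, where in the same fits 1.45% of all genes were called lower against AT3 and 1.85% against 2208L. Without AT3 H3B-8800 replicate 2, 1 gene was called lower against AT3, where 2.06% of all genes were. The label effect in 2208L minus that in T11 was lower for 4 genes, where 9.32% of all genes were called lower: Aurkb at -2.94 (SE 0.53, adjusted p = 0.000871), Kif23 at -1.65 (SE 0.50, adjusted p = 0.0265), Fam64a at -2.18 (SE 0.72, adjusted p = 0.0424) and Bub1b at -1.29 (SE 0.43, adjusted p = 0.0435).

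Among vehicle tumors, the models differed in these genes. PyMT-M vehicle tumors were lower than AT3 vehicle tumors, of the same mouse strain, in 32 of 35 genes, where 28% of all genes were lower and 32.1% higher, with a median log2 difference of -1.56. Top2a had 162 ± 34.5 CPM in PyMT-M and 916 ± 61.3 in AT3 (SD), -2.50 (SE 0.29, adjusted p = 2.18e-07). Mybl2 had 12.4 ± 4.36 and 72 ± 7.34 CPM, -2.54 (SE 0.36, adjusted p = 4.04e-06), and Bub1 29.5 ± 6.71 and 162 ± 13.8, -2.46 (SE 0.28, adjusted p = 2.13e-07). The exceptions were Mki67 at -0.80 (SE 0.37, adjusted p = 0.0666), Plk1 at -0.65 (SE 0.31, adjusted p = 0.0742) and Ttk at -0.58 (SE 0.31, adjusted p = 0.116). PyMT-M and AT3 also differed in epithelial markers, whose summed CPM was 3916 to 6500 in PyMT-M vehicle tumors and 162 to 209 in AT3, with up to 3 of 7 markers at 0 in an AT3 library. Their part in the mitosis gene difference was not tested. Between 2208L vehicle tumors and T11 libraries labelled vehicle, 2 genes were called higher, where 23.1% of all genes were: Mki67 at 1.67 (SE 0.41, adjusted p = 0.00208) and Aurkb at 1.08 (SE 0.37, adjusted p = 0.0224). The count was 1 without T11 vehicle replicate 2, without 2208L vehicle replicate 1 or without 2208L vehicle replicate 3. The call of Aurkb was lost in each of these fits, and also without T11 vehicle replicate 3 (adjusted p = 0.0620) and without the libraries that carry muscle or B cell transcripts (adjusted p = 0.124).

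The introns of the mitosis genes held a larger share of reads in the treated tumors of PyMT-M, AT3 and 2208L. Over the 384 member introns that hold no annotated exon, the intronic percent was 5.22% ± 1.32 in PyMT-M vehicle tumors and 21.7% ± 1.82 after H3B-8800 (SD, n = 4 each). Over all introns without an exon it was 8.31% ± 3.10 and 18.4% ± 4.16. In AT3 the mitosis genes went from 4.72% ± 1.70 (n = 3) to 10.7% ± 2.98 (n = 2) and all introns from 6.94% to 12.5%. In 2208L they went from 3.30% to 6.29% (n = 3 each) and all introns from 4.82% to 8.99%. In T11 the vehicle label stood at 7.24% ± 3.11 and the H3B-8800 label at 3.52% ± 0.554, with 9.10% and 5.61% over all introns. Over the mitosis introns the vehicle and H3B-8800 libraries did not overlap in PyMT-M, AT3 or 2208L. Over all introns the AT3 libraries did, with vehicle replicate 2 at 10.03% and H3B-8800 replicate 1 at 9.43%.

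**Figure D3:**
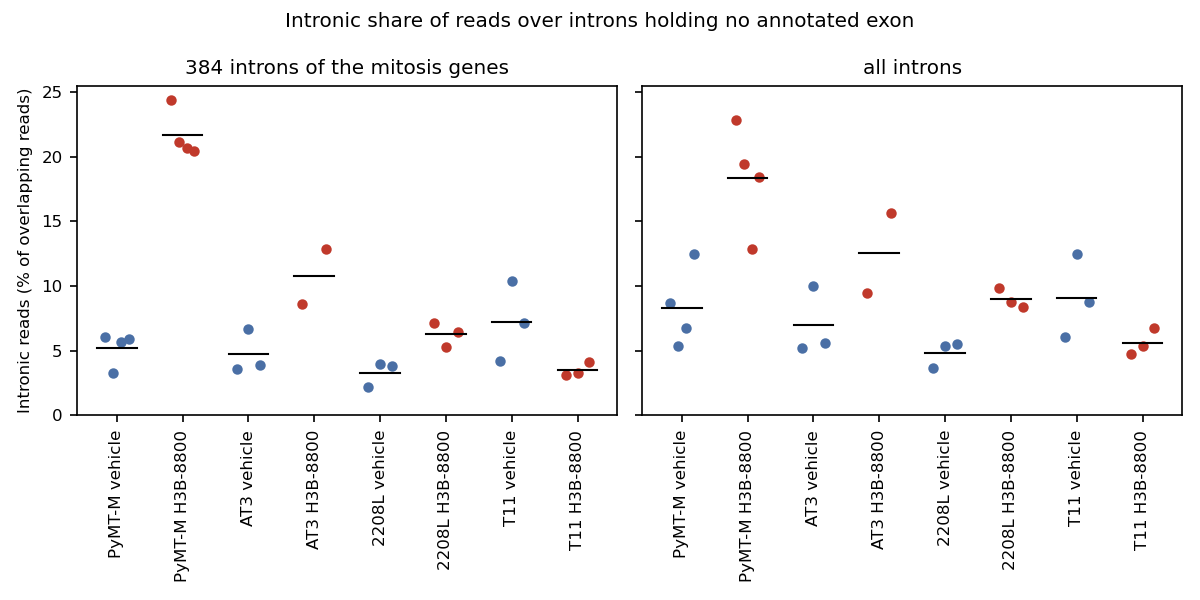
Percent of overlapping reads that are intronic in each library, over the 384 introns of mitosis genes without an annotated exon and over all such introns, by model and treatment. In PyMT-M the mitosis introns move from 3.26% to 6.06% in vehicle tumors to 20.5% to 24.4% with H3B-8800, and in T11 the libraries labelled vehicle are the higher ones.

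By gene, the mean intronic percent was higher with H3B-8800 in 35 of 35 genes in PyMT-M, with a median rise of 15.7 points, against 11.5 points over all genes, of which 80.8% were higher. In AT3 it was higher in 35 of 35, by a median of 7.04 points (8.63 over all genes), and in 2208L in 34 of 35, all but Top2a, by 3.50 points (5.51 over all genes). In T11 it was lower under the H3B-8800 label for 34 of 35, with a median difference of -3.99 points (-5.12 over all genes).

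Of the 511 introns, 174, in all 35 genes, had enough reads to be tested against the spliced reads of their gene. In PyMT-M 117 rose and 2 fell, where 54.7% of all introns tested rose and 5.68% fell. The median log2 change was 2.33 over the mitosis introns and 1.57 over all, and 33 of the 35 genes had at least 1 intron that rose. In AT3 40 rose and 2 fell (background 19.4% and 0.319%), with medians of 1.20 and 1.10. In 2208L 30 rose and 1 fell (background 21% and 0.536%), with medians of 1.02 and 1.07. In T11 35 were lower and 2 higher in the libraries labelled H3B-8800 (background 19.6% and 0.763%), with medians of -0.99 and -0.84. The shares in AT3, 2208L and T11 were near those of all introns. In either direction 119, 42, 31 and 37 introns were called in PyMT-M, AT3, 2208L and T11, against 60.3%, 19.7%, 21.5% and 20.4% of all introns. The count dropped to 10 in AT3 without H3B-8800 replicate 2 (3.80% of all introns), to 15 without vehicle replicate 1 (8.10%) and to 20 without vehicle replicate 3 (10.2%). It dropped to 15 in 2208L without vehicle replicate 1 (9.62%) and to 10 without all libraries that carry muscle or B cell transcripts (5.24%). Without those libraries 95 were called in PyMT-M and 19 in T11, against 44.1% and 6.98% of all introns. The PyMT-M change minus the AT3 or 2208L change was called for 0 member introns, where 0.00192% and 0.115% of all introns were called in either direction.

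By length, in PyMT-M 12 of 15 mitosis introns of up to 300 bases rose (73.9% of all introns of that length), 29 of 39 above 300 and up to 1000 bases (66.7%), 64 of 95 above 1000 and up to 3000 bases (58.9%) and 12 of 25 above 3000 bases (32.9%). In 2208L the counts over the same lengths were 4 of 15, 5 of 39, 14 of 95 and 7 of 25, against 27.6%, 23.9%, 22.5% and 14.3% of all introns. By position, 7 of 9 first introns, 96 of 136 internal and 13 of 28 last introns rose in PyMT-M, against 40.4%, 58.3% and 46.9% of all introns. Among genes, 6 of 6 tested introns of Aurkb, 5 of 5 of Fam64a and 5 of 5 of Kif2c rose in PyMT-M, and 0 of 2 of Ttk and 0 of 1 of Birc5.

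In PyMT-M, AT3 and 2208L alike, 20 introns of 10 genes rose (11.5% of 174, near the 10.7% of all introns), and 17 of them (85.0%), in 7 genes, had no overlap between the groups in any of the 3 models. Of the 5545 introns of all genes that rose in these models, 88.5% had none. In T11 all 20 had a fitted change below 0, as did 99.5% of the 5545, and 14 (70.0%, against 74.2%) were called lower in the libraries labelled H3B-8800. Of the 20, 6 lie in Aurkb, 3 in Cdk1, 2 each in Bub1b, Top2a and Ect2, and 1 each in Anln, Bub1, Cenpf, Melk and Nusap1. Intron 5 of Cdk1, of 1661 bases on chromosome 10 between exon edges 69340878 and 69342540 (mm10, minus strand), holds no annotated exon. It had 1.20, 2.47, 3.31 and 2.42% intronic reads in PyMT-M vehicle tumors and 67.3, 50.5, 63.4 and 63.5% after H3B-8800, a log2 change of 5.83 (SE 0.69, adjusted p = 2.5e-08). In AT3 it had 1.27, 4.33 and 0.696% and then 13.7 and 39.8%, 4.49 (SE 0.77, adjusted p = 0.000181), and in 2208L 0, 6.23 and 2.43% and then 21.4, 22.3 and 20.3%, 3.02 (SE 0.70, adjusted p = 0.00256). In T11 the libraries labelled vehicle had 13.8, 20.8 and 18.9% and those labelled H3B-8800 2.17, 1.18 and 4.89%. All treated tumors of the other 3 models were above all their vehicle tumors.

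Intron 9 of Bub1b, of 4199 bases between exon edges 118617935 and 118622135 on chromosome 2 (mm10, plus strand) and without an annotated exon, had 8.41% ± 9.58 and 79% ± 7.44 in PyMT-M vehicle and H3B-8800 tumors (SD, n = 4 each), 4.16% ± 2.15 (n = 3) and 21.9% ± 12.8 (n = 2) in AT3, and 1.64% ± 1.96 and 19.4% ± 3.34 in 2208L (n = 3 each). Its log2 change in AT3, 2.85 (SE 0.86, adjusted p = 0.0172), was 1.23 (adjusted p = 0.590) without H3B-8800 replicate 2, and its call was also lost without vehicle replicate 1 (adjusted p = 0.0867) or 3 (adjusted p = 0.0692). Intron 15 of Ect2, of 1427 bases between exon edges 27122475 and 27123903 on chromosome 3 (mm10, minus strand), had 4.17% ± 8.33 in PyMT-M vehicle tumors against 47.6% ± 11.7 in treated ones, and 2.18% ± 2.17 against 24.2% ± 19.8 in AT3. In 2208L it had no intronic read in any vehicle tumor and 12% ± 0.613 in treated ones. Its PyMT-M values rest on few reads, with 16 of 28, 3 of 7, 4 of 7 and 8 of 24 intronic in treated tumors. Among PyMT-M vehicle tumors only replicate 4 held intronic reads in it, 4 of 24. In AT3 its change was 2.10 (adjusted p = 0.448) without H3B-8800 replicate 2 and 3.29 (adjusted p = 0.0639) without vehicle replicate 1. Intron 19 of Anln, of 843 bases between exon edges 22351032 and 22351876 on chromosome 9 (mm10, minus strand), had 5.18% ± 6.37 against 73.3% ± 12.3 in PyMT-M, 7.29% ± 3.14 against 52.5% ± 11.9 in AT3 and 4.85% ± 2.16 against 25% ± 3.30 in 2208L. Without 2208L vehicle replicate 1, which carries muscle transcripts, its change in 2208L was 2.21 (adjusted p = 0.0535). Without all libraries that carry muscle or B cell transcripts the 2208L calls of Bub1b intron 9, Ect2 intron 15 and Anln intron 19 were lost (adjusted p = 0.0652, 0.0746 and 0.0956). The introns of Ect2 and Anln hold annotated exons, and how many of their reads come from those was not tested.

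Intron 20 of Top2a, of 1659 bases between exon edges 99004343 and 99006003 on chromosome 11 (mm10, minus strand), was the 1 member intron called lower in all of AT3, 2208L and PyMT-M, where 0.0423% of all introns were. It had 25.3, 3.85, 28.6 and 24.6% intronic reads in PyMT-M vehicle tumors and 0, 18.2, 0 and 0% after H3B-8800, -3.22 (SE 1.05, adjusted p = 0.00858). In AT3 it had 12.2, 14.4 and 8.93% and then 3.39 and 1.01%, -2.85 (SE 0.97, adjusted p = 0.0342), and in 2208L 5.41, 9.20 and 8.94% and then 0, 0 and 1.88%, -3.23 (SE 0.99, adjusted p = 0.0183). In T11 it was higher in the libraries labelled H3B-8800, with 9.91, 6.60 and 9.04% against 0, 1.23 and 0.980%, 3.22 (SE 0.93, adjusted p = 0.012). The PyMT-M groups overlap, since vehicle replicate 2 was low and H3B-8800 replicate 2 high, the latter with 2 intronic of 11 overlapping reads. Calls were lost without PyMT-M H3B-8800 replicate 4 (-2.44, adjusted p = 0.0593), without any single AT3 library (adjusted p of 0.0521 to 0.300), and in 2208L without H3B-8800 replicate 1 (adjusted p = 0.0722) or replicate 2 (adjusted p = 0.0853). Of the other introns that fell, Nuf2 intron 9 had 34.1% ± 12 and 5.67% ± 7.20 in PyMT-M, -2.50 (SE 0.98, adjusted p = 0.0274), and Espl1 intron 6 had 54% ± 6.83 and 20% ± 28.3 in AT3, -3.92 (SE 1.03, adjusted p = 0.00741). Both rest on few reads. In treated tumors 0 of 4, 1 of 13, 0 of 7 and 3 of 20 overlapping reads were intronic for Nuf2, and 2 of 5 and 0 of 19 for Espl1. By the T11 labels Espl1 intron 6 was higher with H3B-8800, at 2.00 (SE 0.69, adjusted p = 0.0341).

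Aurkb held the most introns called in these 3 models: all 6 tested introns of its 7 rose in PyMT-M, AT3 and 2208L and were called lower under the H3B-8800 label in T11. Its mean intronic percent was the highest of the 35 genes in every treated group of PyMT-M, AT3 and 2208L, at 86.0%, 64.9% and 81.6%, from 19.6%, 19.4% and 19.3% in vehicle tumors. In T11 it was 79.5% under the vehicle label and 15.9% under the H3B-8800 label. Intron 5, of 86 bases between exon edges 69048644 and 69048731 on chromosome 11 (mm10, plus strand), holds no annotated exon. It had 1.72, 5.36, 0 and 1.61% in PyMT-M vehicle tumors and 88.9, 78.3, 91.7 and 51.2% after H3B-8800, 5.82 (SE 0.68, adjusted p = 1.78e-08). It had 3.09, 6.55 and 2.66% and then 27.7 and 39.3% in AT3, 3.37 (SE 0.66, adjusted p = 0.000682). It had 3.92, 7.50 and 11% and then 58.3, 49.3 and 46.8% in 2208L, 3.76 (SE 0.64, adjusted p = 0.000119). In T11 it had 30.9, 66.2 and 66.9% under the vehicle label and 5.15, 3.33 and 4.53% under the H3B-8800 label, -4.88 (SE 0.65, adjusted p = 2.07e-06). No treated library of PyMT-M, AT3 or 2208L was below 27.7%, and no vehicle library of these was above 10.99%.

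The other introns of Aurkb followed from different starting points. Intron 1, of 1776 bases, already had 44.4% ± 8.88 in PyMT-M vehicle tumors (SD, n = 4) and reached 97.2% ± 1.29, while intron 6 moved between 37% ± 12.7 and 93.7% ± 4.05, and intron 7 between 27.3% ± 11.1 and 79.4% ± 5.57. Intron 3 started at 3.59% ± 4.83 and reached 51% ± 21.7, with 18.2% in AT3 and 37.3% in 2208L, and intron 4 moved between 12.4% ± 5.14 and 77.5% ± 4.10, with 57.3% and 69.5%. In AT3 the calls of introns 3 and 4 were lost without H3B-8800 replicate 2, and that of intron 3 also without vehicle replicate 1. Intron 2, of 84 bases, had too few reads to be tested. All introns but intron 5 contain exons of other annotated Aurkb transcripts, among them transcripts that retain the intron. Introns 3 and 4 of Aurkb are short enough to print whole, and they are shown with the last 100 bases of Anln intron 19 because these are the introns, called in 3 models, whose letters stand in annotated GENCODE M21 transcripts (GRCm38). Capitals mark the first and last 2 bases of an intron, the splice sites, and the branch point that the SF3B complex helps to recognise lies a short way before the end. Aurkb intron 3 lies at chr11:69048042-69048173 and intron 4 at chr11:69048366-69048505, both on the plus strand, and the stretch of Anln at chr9:22351033-22351132 on the minus strand.
Aurkb intron 3: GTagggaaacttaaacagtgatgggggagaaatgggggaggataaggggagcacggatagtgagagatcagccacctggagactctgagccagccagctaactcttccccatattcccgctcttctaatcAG
Aurkb intron 4: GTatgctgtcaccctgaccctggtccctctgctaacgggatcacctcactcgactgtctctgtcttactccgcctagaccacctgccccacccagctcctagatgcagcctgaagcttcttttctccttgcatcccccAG
Anln intron 19, end: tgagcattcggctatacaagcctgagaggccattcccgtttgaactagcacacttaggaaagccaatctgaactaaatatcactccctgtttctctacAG
Both Aurkb introns begin with GT and all 3 end with AG, the letters of most introns. In the 37 bases from 40 to 4 before the end, 73.0% of letters were pyrimidines in Aurkb intron 3, 67.6% in Aurkb intron 4 and 62.2% in Anln intron 19.

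**Figure D4:**
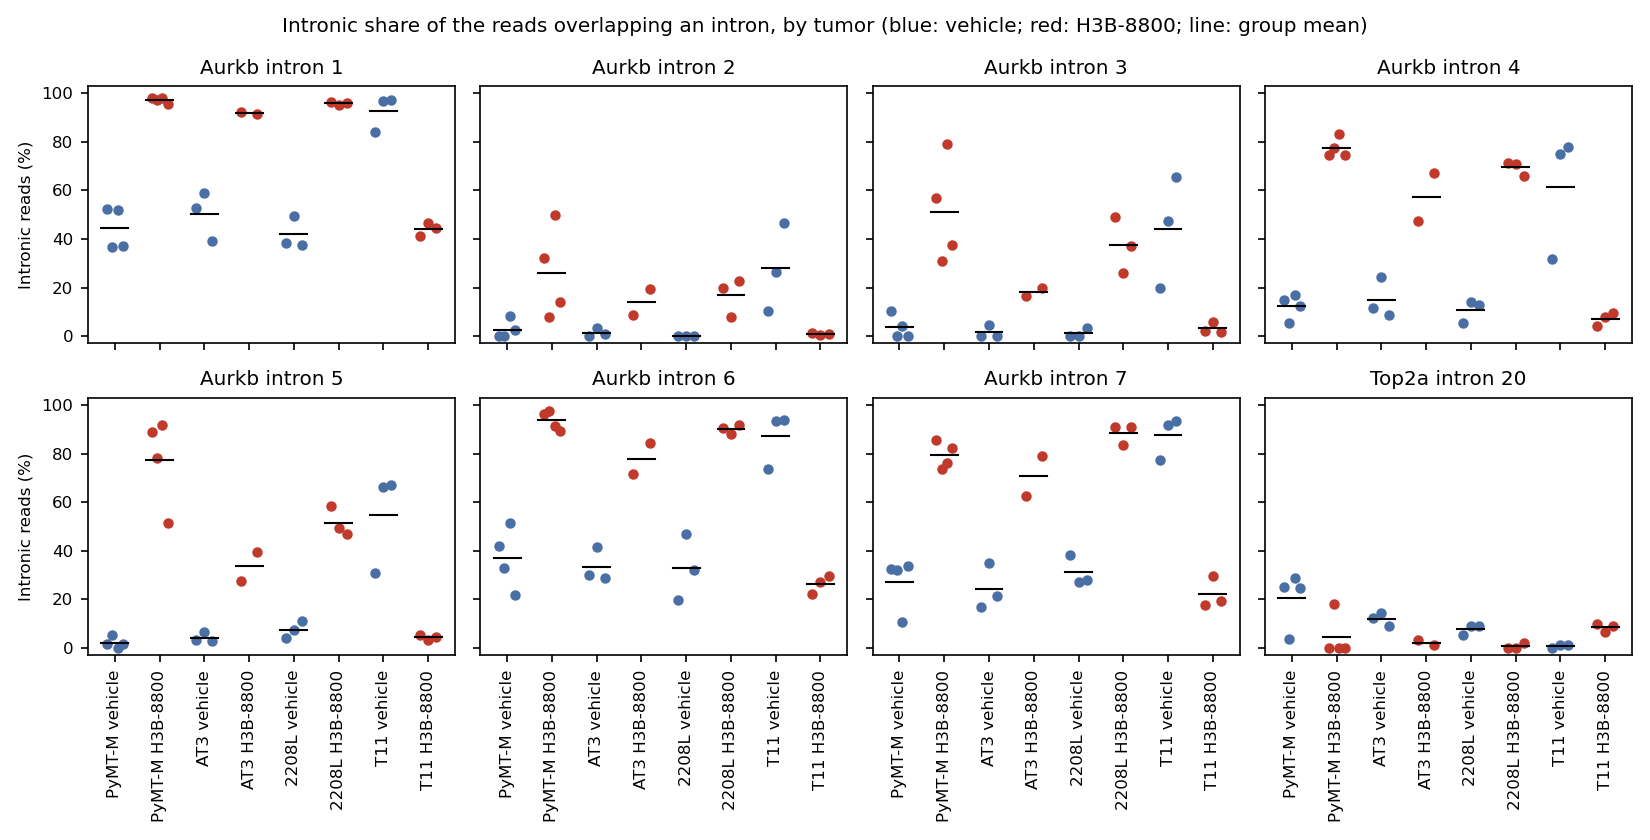
Intronic percent of Aurkb introns 1 to 7 and of Top2a intron 20 in each tumor, by model and treatment. Aurkb introns are high in the H3B-8800 tumors of PyMT-M, AT3 and 2208L and in the T11 libraries labelled vehicle, and Top2a intron 20 runs the other way.

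The level of Aurkb depended on which reads were counted. Counted as all overlapping reads, its log2 change in PyMT-M was 0.59 (adjusted p = 0.113) in place of -1.50, in AT3 0.28 (adjusted p = 0.845) in place of -0.71, and in 2208L 0.41 (adjusted p = 0.409) in place of -1.57. In T11 it was -0.88 (adjusted p = 0.0838) in place of 1.37, and between vehicle tumors of 2208L and T11 -1.10 (adjusted p = 0.00622) in place of 1.08. The fitted change was thus below 0 in spliced reads and above 0 in all overlapping reads in PyMT-M, AT3 and 2208L, and the reverse by the labels of T11. Fam64a went from -2.86 to -1.40 (adjusted p = 0.00432) in PyMT-M and Cdk1 from -1.10 to -0.57 (adjusted p = 0.104). Over all overlapping reads of the 35 genes the median was -1.04 in PyMT-M with 28 called, and -0.29 in AT3, -0.57 in 2208L and 0.44 in T11 with 0 called in each. The share of all genes called by these reads is not given here, so the counts are not compared with those of spliced reads.

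**Figure D5:**
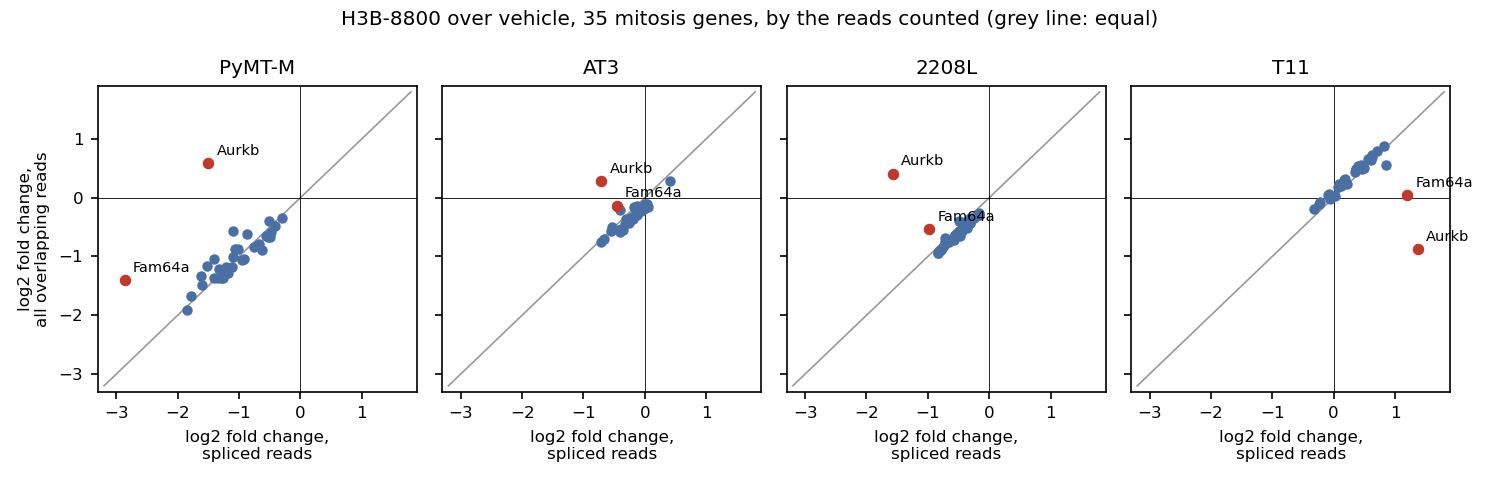
Log2 fold change of each mitosis gene by its spliced reads (x axis) and by all reads overlapping its introns (y axis), 1 panel per model and 1 point per gene. Most genes lie near the diagonal, and Aurkb lies above it in PyMT-M, AT3 and 2208L and below it in T11.

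Other genes of the cell cycle were followed as lists. Of 99 further mitosis genes, 49 fell and 0 rose in PyMT-M, where 14.6% of all genes fell and 10.2% rose, with a median of -0.63, led by the condensin subunit Smc4 at -1.67 (SE 0.20, adjusted p = 8.38e-06), the centromere protein Cenpt at -1.31 (SE 0.18, adjusted p = 3.02e-05), Oip5, which helps to load Cenpa, at -1.74 (SE 0.26, adjusted p = 7.86e-05) and the anaphase-promoting complex subunit Anapc4 at -0.83 (SE 0.13, adjusted p = 9.47e-05). In AT3 0 were called, against 0.3% of all genes, and in 2208L 16 fell, against 5.67%, with a median of -0.39 and Cdc23, Cenpt, Smc4 and Ncaph first. In T11 6 were higher and 3 lower in the libraries labelled H3B-8800, where 6.66% of all genes were higher and 5.07% lower. PyMT-M vehicle tumors were lower than AT3 vehicle tumors in 80 and higher in 1, where 28% of all genes were lower and 32.1% higher. Of 49 S phase genes, 20 fell and 1 rose in PyMT-M, with a median of -0.61 and the same shares over all genes. Among those that fell were Cdc45, part of the replicative helicase, at -1.97 (SE 0.29, adjusted p = 7.16e-05), Rpa3 at -1.71 (SE 0.26, adjusted p = 9.16e-05) and Pola2 at -1.18 (SE 0.19, adjusted p = 0.000196). In 2208L 10 fell, with Cdc45 at -1.47 (SE 0.32, adjusted p = 0.00704) and a median of -0.47, and in AT3 0 were called.

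Of 32 genes of G1 control and of the DREAM, E2F and NF-Y families, 6 rose and 6 fell in PyMT-M, where 10.2% of all genes rose and 14.6% fell, with a median of 0.11. Cyclin D2 (Ccnd2), a G1 cyclin, rose by a log2 fold change of 2.15 (SE 0.37, adjusted p = 0.000294) there and by 1.39 (SE 0.41, adjusted p = 0.0353) in 2208L. Cdkn1a, the p21 inhibitor of cyclin-dependent kinases, rose by 0.92 (SE 0.31, adjusted p = 0.0334) and 1.33 (SE 0.41, adjusted p = 0.044) in the same models. Cdkn1b, another inhibitor of these kinases, went the other way in PyMT-M, at -0.86 (SE 0.18, adjusted p = 0.00202). In 2208L it was not called (-0.15, adjusted p = 0.704). Tfdp1 at -0.60 (SE 0.14, adjusted p = 0.00343) and Cdk4 at -0.87 (SE 0.21, adjusted p = 0.00455) also fell in PyMT-M. So did Nfyc at -0.53 (adjusted p = 0.0114) and Nfyb at -0.48 (adjusted p = 0.0189). Cyclin D1 (Ccnd1) at 1.01 (adjusted p = 0.00674) and Lin52 at 1.88 (adjusted p = 0.00884) rose there. In 2208L 2 of the 32 rose, where 607 of all 13001 genes did. In AT3 0 of the 32 were called, and in T11 E2f6 and E2f3 were lower in the libraries labelled H3B-8800, as were 5.07% of all genes.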

How the data were processed

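Poly(A) RNA of whole mouse tumors was isolated and made into strand-specific libraries, per the labels' protocols. Per the submitters' processing notes, HISAT2 2.0.4 was used and mm10 and hg38 were the builds. The sources used here do not give the counting tool or its strand setting. Each of the 25 deposited tables gives, per intron, the authors' counts of intronic reads and of reads overlapping the intron, and the authors' RPKM of intronic reads, which was checked against the counts and entered no test. Of 163337 introns, 22 without values were left out. Exon edges matched GENCODE M21 for 99.9% of introns.

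Spliced counts were summed per gene, scaled by TMM and tested with edgeR 4.0.16 (R 4.3.3, robust quasi-likelihood, 8 group means, genes at 1 CPM or more in 2 libraries or more). Introns averaging 5 or more intronic and 10 or more spliced reads were tested with the gene's spliced reads as offset. P-values were adjusted over all genes or introns. Alternatives used DESeq2 1.42.0, limma 3.58.1, other counts, filters and libraries. Procedures were tested on simulated data.

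The members and gene lists were chosen with earlier results of these data known. Mki67, Top2a, Cdk1, Ccnb1, Plk1 and the 4 called genes of smallest p per comparison and direction were given by library. Named introns were called in PyMT-M, AT3 and 2208L in 1 direction, up to 10 higher by mean change without overlap and up to 6 lower. From each other list up to 4 genes of smallest p were named. Cdc20, Kif2c, Ect2, Aurkb in PyMT-M and AT3, Fam64a in T11 and the Nuf2 and Espl1 introns were added after their values were seen. So were Ccnd1, Lin52, Nfyb and Nfyc in PyMT-M. The label effect of 2208L minus T11 and the fits without T11, without libraries of muscle or B cell transcripts, and on introns without an annotated exon were added after seeing the data.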

Additional observations from a re-analysis of the deposited data

Results flagged for a closer look

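In groups of 4 tumors, 8 of 96 value sets tested had a sample far from the others, where chance gives about 1 in 20. They were the 29.6 CPM of Nusap1 in PyMT-M vehicle replicate 3 (lowest) and the 2.69 CPM of Fam64a in PyMT-M H3B-8800 replicate 4 (highest). The intronic percent over the mitosis introns was 3.26% in PyMT-M vehicle replicate 2 (lowest) and 24.4% in H3B-8800 replicate 1 (highest). Single introns were Ect2 intron 15 at 16.7% in vehicle replicate 4, Aurkb intron 7 at 10.7% in vehicle replicate 3, and Top2a intron 20 at 3.85% in vehicle replicate 2 and 18.2% in H3B-8800 replicate 2.

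Over the 3 differences between models, 138 tests gave 15 calls, all for the H3B-8800 label in 2208L minus T11. There 4 of 35 genes were called (11.4%, against 16.2% of all genes), and all 11 introns below, which were chosen because they were called in each of PyMT-M, AT3 and 2208L. Of all 174 mitosis introns tested 45.4% were called, against 38.0% of all introns. On the log2 scale, 2208L minus T11 was -2.94 for Aurkb, -2.18 for Fam64a, -1.65 for Kif23 and -1.29 for Bub1b. For introns it was 9.61, 10.79, 8.72, 8.65, 9.30 and 7.99 for Aurkb introns 1, 3, 4, 5, 6 and 7. It was 8.52 for Ect2 intron 15, 7.12 for Bub1b intron 9, 6.21 for Anln intron 19, 5.86 for Cdk1 intron 5 and -6.45 for Top2a intron 20. Ect2 intron 15 had no intronic read in 2208L vehicle tumors, so its fitted value is no bound. These differences rest on the T11 labels, against which the intron reads run.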

How the results depend on the processing

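Counts in this section, with those by replicate block and without single libraries, are of mitosis genes or introns called. Each depends on the number tested in its fit and on the share of all genes or introns called there. They are therefore not read as results about the mitosis genes. Without the libraries carrying muscle or B cell transcripts, 6 genes in place of 25 were called in PyMT-M, 0 in place of 1 in 2208L and in T11, and 10 introns in place of 31 in 2208L and 19 in place of 37 in T11. Counting all overlapping reads gave 0 genes in 2208L and in T11 and 4 in place of 2 between vehicle tumors of 2208L and T11, and reversed Aurkb to 0.59 in PyMT-M, 0.41 in 2208L, -0.88 in T11 and -1.10 between those vehicle tumors. Introns with no annotated exon gave 0 genes in 2208L and in T11 and 1 between vehicle tumors of 2208L and T11. Of the 110 such member introns tested, 79 were called in PyMT-M, 19 in 2208L and 21 in T11. Over all 174 member introns tested, the counts were 119, 31 and 37. Fits on the compared libraries alone gave 17 genes in place of 25 in PyMT-M, 11 in 2208L and 0 in T11. The median over introns gave 3 in T11. DESeq2 gave 2 genes in place of 0 for PyMT-M minus AT3. A minimum of 20 intronic reads gave 43, 22, 16 and 22 introns in PyMT-M, AT3, 2208L and T11, where 119, 42, 31 and 37 were called, and a minimum of 1 gave 203 in PyMT-M. In AT3 limma gave 25. For these changes, the stricter minimum and the smaller sets of libraries or introns test fewer introns or samples, and otherwise the cause was not tested.

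Replicate numbers are shared between groups. Deviations of same-numbered tumors from their group means had correlations of 0.077, 0.039, 0.369 and 0.103 in PyMT-M and -0.066 and 0.056 in AT3. They were -0.002, -0.109 and -0.239 in 2208L and 0.299, -0.364 and -0.257 in T11. Tumors of unlike number had -0.225 to 0.165 in PyMT-M and -0.440 to 0.488 in T11. So few tumors cannot show whether the numbers pair samples, and the main tests used no pairing. With a replicate block 30 genes were called in PyMT-M, 3 in T11 and 13 introns in AT3.

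Leaving out 1 library at a time gave 20 to 35 genes in PyMT-M, 0 in AT3, 0 to 1 in 2208L, 0 to 1 in T11, 31 to 34 between PyMT-M and AT3 vehicle tumors, 1 to 3 between 2208L and T11 vehicle tumors, 0 to 8 for PyMT-M minus AT3 and 0 to 7 for PyMT-M minus 2208L. It gave 110 to 119 introns in PyMT-M, 10 to 47 in AT3, 15 to 32 in 2208L and 25 to 46 in T11. Where AT3 keeps 1 H3B-8800 library, it is assumed to vary like the other groups. PyMT-M treated tumors held 5927 to 16515 reads over the mitosis introns, the fewest of any group, which limits single introns there.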
